A study of Mus musculus with 2 samples.

Results

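The Cyp2b and Cyp2c genes encode cytochrome P450 enzymes of hepatocytes. These enzymes sit in the membrane of the endoplasmic reticulum, carry heme, and oxidize drugs, steroids, retinoids and unsaturated fatty acids with electrons passed on by P450 reductase. Several Cyp2c enzymes convert arachidonic acid to epoxides. Cyp2b10 is the classical mouse gene induced by phenobarbital, through the constitutive androstane receptor CAR (gene Nr1i3), and Cyp2b9 and Cyp2b13 are known as genes with higher expression in female than in male liver. The 10 genes described here, 3 of the Cyp2b and 7 of the Cyp2c subfamily, were listed by name with the FLS/DS signal ratios of these same 2 arrays known. The members were thus chosen by measured values that include these ratios, which are given below as a description. They are Cyp2b9, Cyp2b10, Cyp2b13, Cyp2c29, Cyp2c37, Cyp2c38, Cyp2c39, Cyp2c50, Cyp2c54 and Cyp2c70. They were represented by 12 of the 45101 probe sets of the array, and are 10 of the 18194 genes that could be named. All 12 probe sets carried 1 gene symbol. Cyp2b10 had 3 probe sets and the other 9 genes had 1 each.

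The samples were 2 pools of liver RNA, 1 from 3 FLS (fatty liver Shionogi) mice and 1 from 3 DS (dd Shionogi) mice, all 19 weeks of age, each hybridized to 1 Affymetrix mouse genome array. FLS mice served as the model of nonalcoholic steatohepatitis and DS mice as the model of simple steatosis. The 2 inbred strains come from different lines of an outbred ddN colony, were not treated, and were kept on the same pellet diet, so the comparison is between strains as much as between disease states. With 1 pool per strain there are no replicates, no difference has an error, and no test was possible. The values are linear signal intensities. Signals below 200 were set to 200 before genes were counted as higher or lower, and a ratio with such a signal is a bound. A gene was called measured if it reached 200 in at least 1 pool.

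The liver label fitted the signals. All 10 measured hepatocyte markers had FLS/DS ratios between 1.01 and 1.06, and summed to 219370 on the FLS array against 212066 on the DS array. No measured marker of another cell type differed by 2-fold between the pools when signals below 200 were set to 200. Of 7 stellate cell markers 5 were measured, and the 7 summed to 10120 on the FLS array against 7603 on the DS array. Dcn made up most of these sums, at 6550 and 4770. Reln, at 2153 and 1561, and Pdgfrb, at 361 and 179, also had ratios above 1. So did Col1a1, which stayed below 200 in both pools. Lrat and Acta2 had ratios below 1, as did Des, which stayed below 200 in both pools. Of 4 cholangiocyte markers on the array only Sox9, at 365 and 140, and Epcam, at 182 and 211, were measured. All 4 summed to 729 and 543, and without Sox9 to 364 and 403, the opposite direction. The 6 Kupffer cell and macrophage markers, all measured, summed to 2956 and 3563. Vsig4, Clec4f, Adgre1 and Marco had ratios of 0.554, 0.730, 0.744 and 0.838. Csf1r, the brightest, had 0.993, and Cd68 went the other way at 1.26. Of 5 endothelial markers 3 were measured, with sums of 5223 and 4756 over the 5. Most markers of neutrophils and of lymphocytes stayed below 200 in both pools, with 2 of 5 and 2 of 6 measured and sums of 765 against 886 and of 869 against 937. None of these markers was listed at 0, and their part in the results was not tested. The labels give no sex. The Y-linked gene Eif2s3y reached 1080 in FLS against 1249 in DS livers, while Xist, which is transcribed from the inactive X chromosome, stayed below 200 in both pools, at 106 and 117.

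The sequences at the start of 6 of these genes are printed first. Cyp2b9 and Cyp2b13 are nearly identical there, and Cyp2c37 and Cyp2c50 are close there. These pairs were picked with their ratios known, and a link between start sequence and ratio was not tested. RefSeq windows were matched for 9 of the 10 members, all but Cyp2c54, from the GRCm38.p6 build. That build is of C57BL/6J mice and not of FLS or DS mice, so differences between the strains are not shown. The bases end before the first annotated transcript base and run 5′ to 3′. Capitals mark matches, on either strand, to any of 5 motifs. A half-site bound by many nuclear receptors is AGGTCA, and a common variant of this half-site is AGTTCA. The core sequence that factors of the C/EBP family recognize is TTGCNNAA. For the liver factor HNF1 the half-site searched for was GTTAAT, and the TATA box was searched for as TATAAA. The first 3 sequences are the Cyp2b members, with Cyp2b13 and Cyp2b9 starting at the same aligned base. Cyp2c37 and Cyp2c50, which lie on either side of Cyp2c54 and had higher signals in FLS livers, follow. Cyp2c29 comes last, as a Cyp2c member with like signals in both pools.
Cyp2b10 (chr7:25897408-25897657, plus strand): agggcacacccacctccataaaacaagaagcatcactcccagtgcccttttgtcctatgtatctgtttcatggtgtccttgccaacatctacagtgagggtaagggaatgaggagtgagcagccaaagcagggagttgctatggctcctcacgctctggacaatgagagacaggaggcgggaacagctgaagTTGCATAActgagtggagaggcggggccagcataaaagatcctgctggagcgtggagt
Cyp2b13 (chr7:26061245-26061387, plus strand): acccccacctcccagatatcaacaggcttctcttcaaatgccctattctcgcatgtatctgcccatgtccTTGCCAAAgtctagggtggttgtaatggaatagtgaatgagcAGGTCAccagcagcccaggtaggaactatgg
Cyp2b9 (chr7:26173159-26173349, plus strand): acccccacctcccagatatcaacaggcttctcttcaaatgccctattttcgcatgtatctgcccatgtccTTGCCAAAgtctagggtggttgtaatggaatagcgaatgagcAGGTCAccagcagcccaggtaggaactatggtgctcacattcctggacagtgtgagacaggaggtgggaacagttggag
Cyp2c37 (chr19:39992174-39992423, plus strand): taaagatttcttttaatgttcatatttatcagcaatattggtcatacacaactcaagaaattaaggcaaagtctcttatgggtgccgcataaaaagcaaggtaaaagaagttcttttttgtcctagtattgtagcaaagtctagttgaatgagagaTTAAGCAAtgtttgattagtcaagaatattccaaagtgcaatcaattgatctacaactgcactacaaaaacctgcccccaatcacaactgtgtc
Cyp2c50 (chr19:40089429-40089678, plus strand): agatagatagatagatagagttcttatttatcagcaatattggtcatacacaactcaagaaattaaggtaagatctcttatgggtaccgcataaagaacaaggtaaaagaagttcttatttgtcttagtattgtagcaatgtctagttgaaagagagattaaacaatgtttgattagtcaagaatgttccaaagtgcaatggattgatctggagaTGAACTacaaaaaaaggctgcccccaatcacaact
Cyp2c29 (chr19:39286835-39287043, plus strand): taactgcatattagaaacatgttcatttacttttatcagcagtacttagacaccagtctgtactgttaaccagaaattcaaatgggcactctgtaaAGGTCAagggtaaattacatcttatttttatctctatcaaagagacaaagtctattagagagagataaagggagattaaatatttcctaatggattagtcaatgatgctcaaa

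Cyp2b10 had the highest FLS/DS ratio of the 10 members. Its brightest probe set reached 1501 in the FLS pool against 156 in the DS pool, for a measured ratio of 9.60. The DS signal lay near the array median of 125, so the ratio is a bound. By this probe set Cyp2b10 was at least 7.50-fold higher in FLS livers. The other probe sets went the same way. The next one read 987 in FLS against 107 in DS livers, at least 4.93-fold higher, and the dimmest read 782 against 121, at least 3.91-fold higher. In no probe set of Cyp2b10 did the DS pool reach 200. The brightest probe set and the next one have names ending in _s_at. The dimmest does not, and its measured ratio was 6.46. The extent to which close copies share signal with these probe sets is not known here. In whole liver RNA, fewer cells of a type cannot be told apart from less RNA per cell.

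The remaining Cyp2b members did not share this direction. Cyp2b13 reached 89.8 in the FLS pool against 737 in the DS pool. It was at least 3.68-fold lower in FLS livers, with a measured ratio of 0.122, and was the only member at least 2-fold lower. Cyp2b9 reached 1028 in the FLS pool against 1298 in the DS pool, for a ratio of 0.792. So of 3 genes that lie next to each other on chromosome 7, 1 had its high signal in FLS livers, 1 in DS livers, and 1 had signals above 1000 in both.

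Cyp2c37, Cyp2c54 and Cyp2c50 were the Cyp2c members with the highest ratios. Cyp2c37, whose enzyme hydroxylates arachidonic acid, reached 1921 in the FLS pool against 417 in the DS pool, for a ratio of 4.61. Cyp2c54, an epoxygenase gene, reached 5890 in the FLS pool against 2153 in the DS pool, for a ratio of 2.74. Cyp2c50, another epoxygenase gene, reached 9597 in the FLS pool against 5308 in the DS pool, for a ratio of 1.81, which is below 2-fold. These 3 genes had all their signals above 200, so the ratios are not bounds.

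The other 4 Cyp2c members had ratios between 0.862 and 1.20. Cyp2c29, an epoxygenase gene abundant in mouse liver, reached 15897 in the FLS pool against 15016 in the DS pool, for a ratio of 1.06. Cyp2c39, whose enzyme hydroxylates retinoic acid, had a signal of 1296 and 1079, a ratio of 1.20. Cyp2c38 reached 1012 in FLS against 1095 in DS livers, for a ratio of 0.924 that rose to 1.07 when all ratios were divided by that of Actb. Cyp2c70, the gene of the enzyme that makes muricholic acids in mouse liver, reached 12006 in FLS against 13927 in DS livers, for a ratio of 0.862. Of these 4 genes, Cyp2c38 was the only one to cross 1 under another scaling. Each has 1 probe set, so no other choice of probe sets could be tried.

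**Figure D1:**
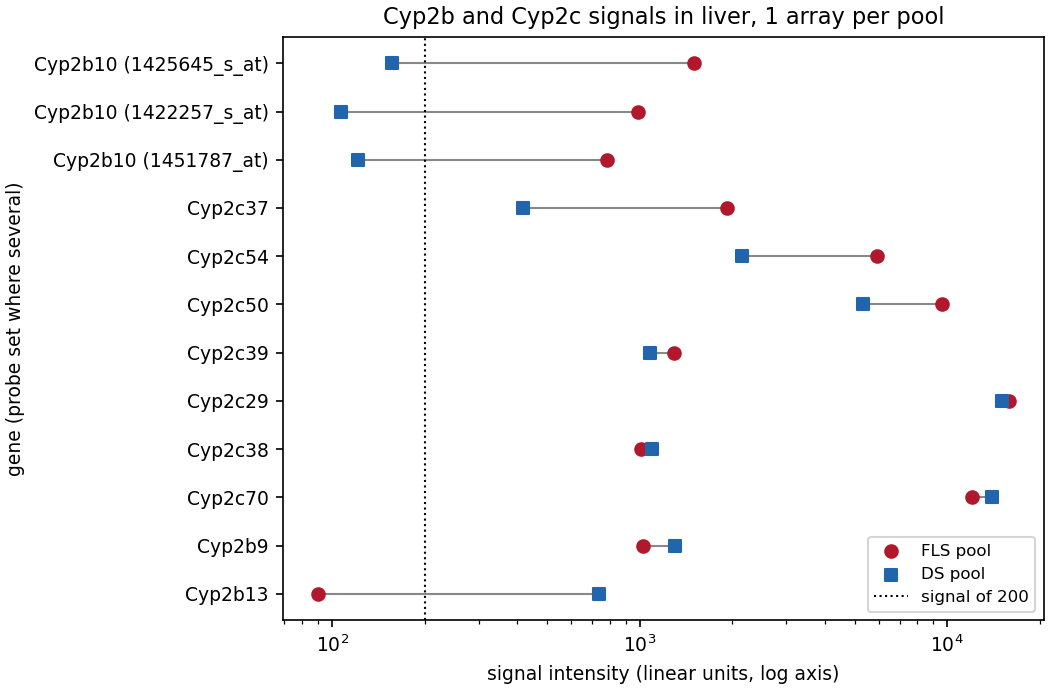
Signal intensity on a log axis for the 12 probe sets of the 10 genes, ordered by FLS/DS ratio, with circles for the FLS array, squares for the DS array and a dotted line at 200. The 3 probe sets of Cyp2b10 have DS signals from 107 to 156 and FLS signals from 782 to 1501, while Cyp2b13 has its FLS signal of 89.8 below the line.

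Over the 10 members, Cyp2b10, Cyp2c37 and Cyp2c54 (3 genes) exceeded 2-fold with FLS the higher pool, Cyp2b13 (1 gene) with FLS the lower pool, and the remaining 6 were within these limits. The ratio nearest below 2 was that of Cyp2c50 at 1.81 and the nearest above it that of Cyp2c54 at 2.74. Among 9160 measured genes, 1.46% (134 genes) passed the 2-fold limit upward and 1.08% (99 genes) downward, numbers that became 208 and 77 after division by Actb. The members were listed with these ratios known, so their counts are a description and no evidence that the family stands apart. By ratio, Cyp2b10 ranked 6 from the top of the 9160 genes, Cyp2c37 ranked 17, Cyp2c54 ranked 52 and Cyp2c50 ranked 189. Cyp2b13 ranked 26 from the bottom. The median log2 ratio of the members was 0.17, and that of all measured genes 0.028. Division by Actb shifts every log2 ratio upward by 0.21.

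**Figure D2:**
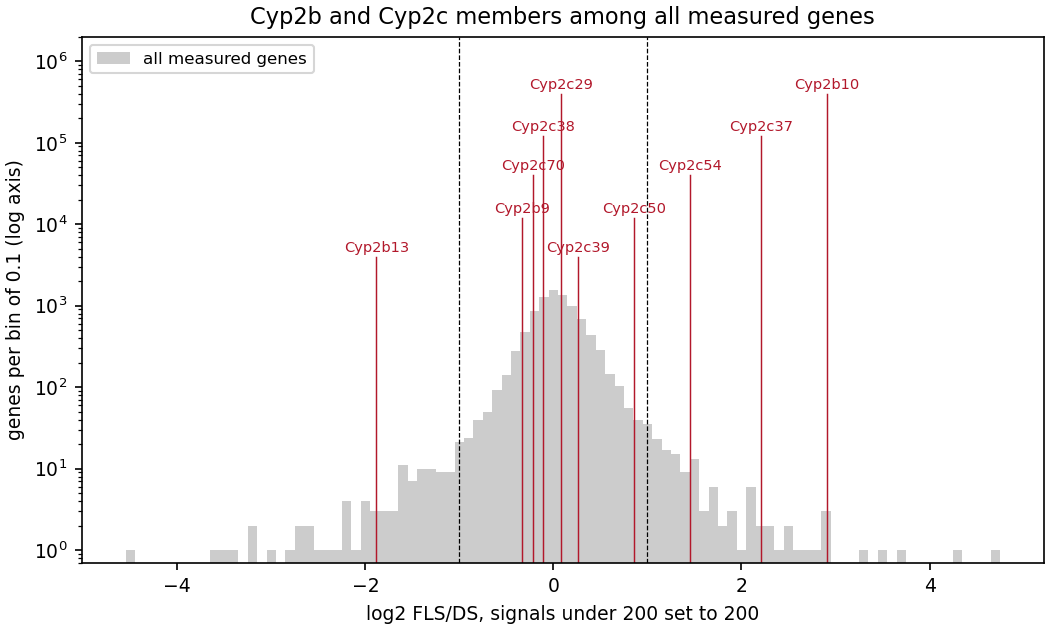
Number of genes on a log axis per 0.1 bin of the log2 FLS/DS ratio, over 9160 measured genes (grey), with signals below 200 set to 200 and the 10 members as labelled lines. Dashed lines mark 2-fold differences, and Cyp2b13 lies to the left of them while Cyp2c54, Cyp2c37 and Cyp2b10 lie to the right.

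Along the chromosomes the higher Cyp2c members were neighbours. In the RefSeq gene order, Cyp2c37, Cyp2c54 and Cyp2c50 follow each other on chromosome 19 with no other protein-coding gene between them. Their ratios were 4.61, 2.74 and 1.81. Each was read from 1 probe set, and the extent to which these genes share signal is not known here. The members were listed with these ratios known, so the run is a description. The next protein-coding gene after Cyp2c50 is Cyp2c70, at 0.862. On the other side lie Cyp2c69, Cyp2c40, Cyp2c68 and Cyp2c67, of which Cyp2c68 alone had a probe set with that name here. It read 6766 in FLS against 3000 in DS livers, a ratio of 2.26, and since these genes are close copies of each other the reading may not belong to Cyp2c68 alone. Beyond them, Cyp2c38, Cyp2c39 and Cyp2c29 had ratios of 0.924, 1.20 and 1.06. Farther away, Cyp2c55 had 194 in FLS and 216 in DS livers, and Cyp2c23 had 3071 and 2487, a ratio of 1.23. On chromosome 7, Cyp2b10, Cyp2b13 and Cyp2b9 also follow each other with no other protein-coding gene between them. Cyp2b19, an epidermal gene of the same cluster, stayed below 200 in both pools. In all, 7 of 15 protein-coding Cyp2c genes on chromosome 19 and 3 of 5 Cyp2b genes on chromosome 7 are members.

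**Figure D3:**
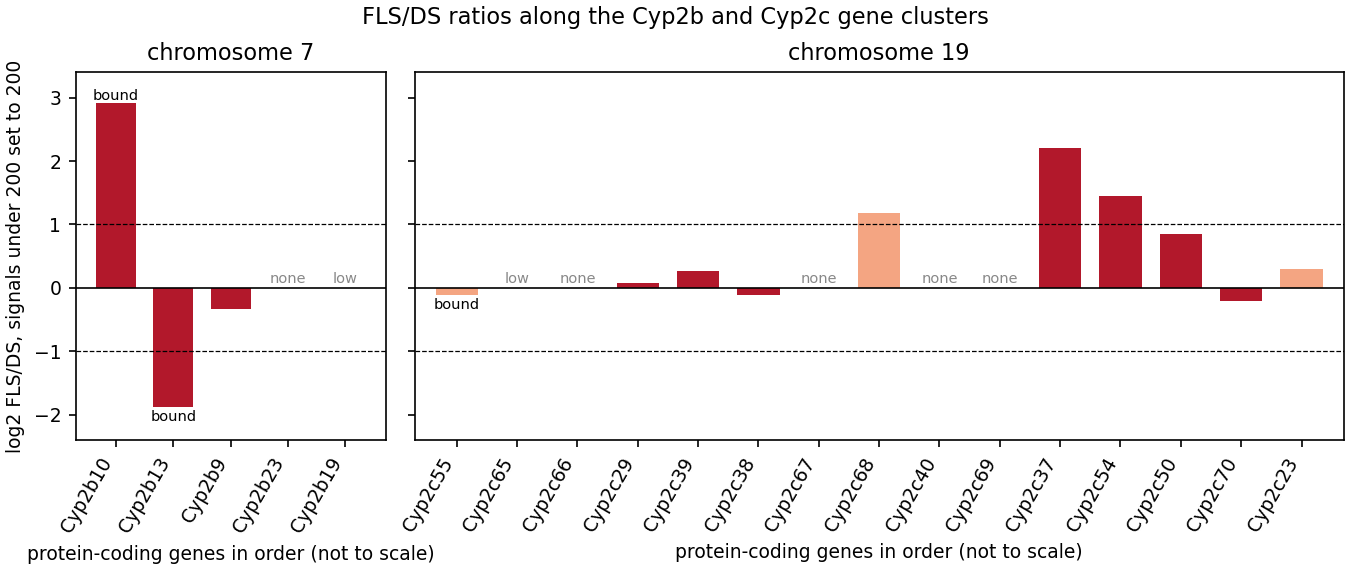
The log2 FLS/DS ratio of each protein-coding Cyp2b and Cyp2c gene in its order on chromosomes 7 and 19, with signals below 200 set to 200, members in dark red and other genes in light red, "none" for genes with no probe set named here and "low" for genes below 200 in both pools. Cyp2c37, Cyp2c54 and Cyp2c50 stand side by side with ratios of 4.61, 2.74 and 1.81, and Cyp2b10 and Cyp2b13 stand side by side with ratios, both bounds, in opposite directions.

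The 300-base windows at the gene starts, which hold 250 bases before and 50 after the start, showed which members are close in sequence. Cyp2b9 and Cyp2b13 differed at 2 of 300 bases, an identity of 99.3%. With the Cyp2b9 base first, the position counted from 1 at the 5′ end of the window, and the Cyp2b13 base last, the differences were T48C and C104T, both within the bases printed above. The signals of this pair had ratios of 0.792 and 0.122. Cyp2b10 was identical to Cyp2b9 at 223 of 289 aligned bases (77.2%), and to Cyp2b13 at the same number. Cyp2c37 and Cyp2c50 were identical at 264 of 295 aligned bases (89.5%), and had ratios of 4.61 and 1.81. Cyp2c29, Cyp2c38 and the 2 windows of Cyp2c39 shared between 80.5% and 90.7% of aligned bases and belong to the genes with ratios of 1.06, 0.924 and 1.20. Between these 4 windows and those of Cyp2c37 and Cyp2c50 the identity was between 66.4% and 70.6%. Cyp2c70 shared at most 72.6% with any other member. The probes of the array match transcripts and not these windows, and no probe sequences were used, so the extent to which close copies share signal is not known here.

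**Figure D4:**
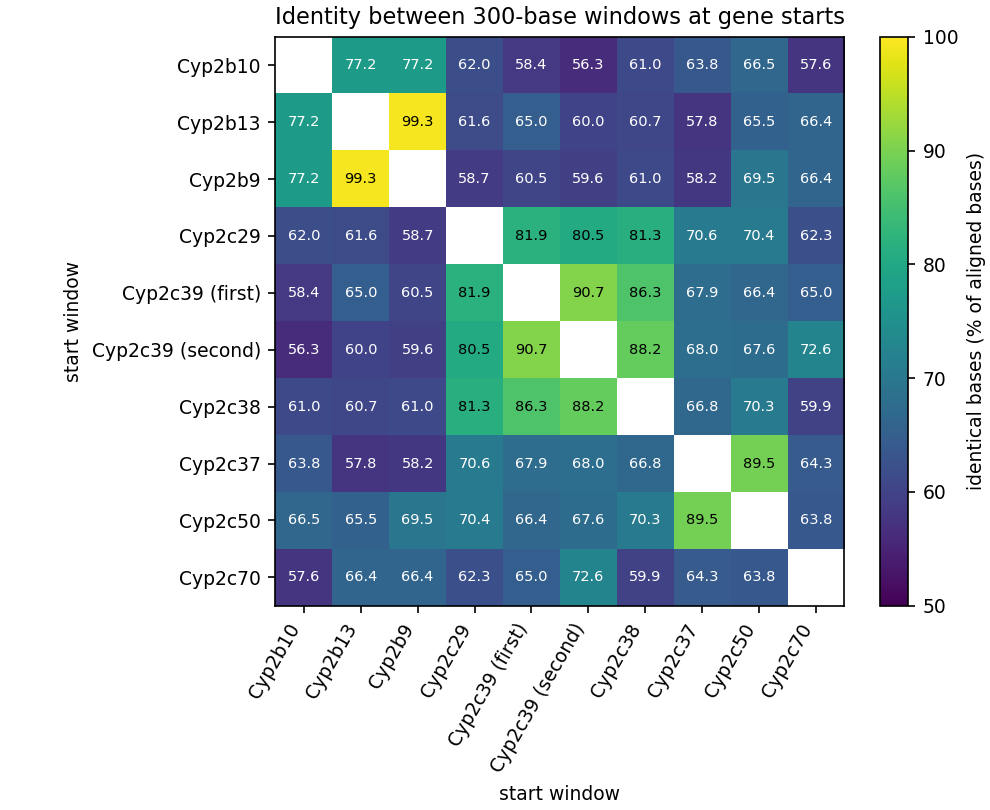
Identity, in percent of aligned bases, between the 10 windows of 300 bases at the starts of 9 members, Cyp2c39 having 2 windows. The brightest cell is Cyp2b9 with Cyp2b13 at 99.3%, and Cyp2c37 with Cyp2c50 reaches 89.5%.

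In the 250 bases before the start, AGGTCA was found in 5 of the 10 windows, those of Cyp2b9, Cyp2b13, Cyp2c29 and Cyp2c70 and 1 of Cyp2c39, and in 14.0% of all 32851 windows. TTGCNNAA was found in those of Cyp2b9, Cyp2b10, Cyp2b13 and Cyp2c37, and in 9.56% of all windows. AGTTCA was found in those of Cyp2c50 and the other window of Cyp2c39 (11.8% of all), and TATAAA in those of Cyp2c29, Cyp2c38 and Cyp2c70 (12.4% of all). The TATAAA matches of Cyp2c29 and Cyp2c38 reach into bases of an annotated transcript, so that of Cyp2c29 is not in the sequence printed above. No window of a member held GTTAAT, which 6.43% of all windows held. The matches of Cyp2b9 and Cyp2b13 stood at the same places in both. No matches overlapped. These are letter matches in 1 reference strain. The enhancer through which phenobarbital acts on Cyp2b10 is known to lie farther upstream, outside these windows.

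The CAR gene Nr1i3 had a higher signal in FLS livers, and a link between it and the Cyp2b10 signal was not tested. Nr1i3 reached 2819 in the FLS pool against 1020 in the DS pool, for a ratio of 2.76, with values from 2.73 to 3.19 over other scalings. It was read from 1 probe set. Of 20 measured regulators of Cyp2b and Cyp2c transcription, Nr1i3 alone (5%, against 1.46% of all measured genes) was at least 2-fold higher. None was at least 2-fold lower, against 1.08% of all measured genes. With so few genes these shares do not set the list apart. Nr1i2, the gene of the related pregnane X receptor PXR, reached 474 in FLS against 543 in DS livers, for a ratio of 0.872. Its other probe set read 418 in FLS against 408 in DS livers, a ratio of 1.02. Nr0b2, the gene of the corepressor SHP, had 2887 and 1465, a ratio of 1.97 that passed 2-fold when the ratios were centred or divided by Actb. Bcl6, a repressor of female-biased liver genes, had a ratio of 1.71. Onecut1, a factor that takes part in growth hormone-dependent expression, had 122 and 377, at least 1.89-fold lower in FLS livers. Hnf4a, a factor needed for many hepatic P450 genes, had a ratio of 1.12 with its brightest probe set. Its other measured probe sets gave 0.890 and 1.06. The median log2 ratio of these regulators was 0.10.

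Of 21 other measured genes that are induced through CAR or PXR, 4 (19.0%, against 1.46% of all measured genes) were 2-fold or more up in FLS livers. In the other direction 1 gene (4.76%, against 1.08%) passed 2-fold, and 16 fell in the middle. The list was made with earlier results of these data known, so these counts are a description and no evidence that the list stands apart. The median log2 ratio of the list was 0.025, close to the 0.028 of all measured genes. Meg3, an imprinted noncoding RNA that responds to phenobarbital in mouse liver, reached 5093 in FLS against 257 in DS livers with its brightest probe set, for a ratio of 19.8. Its 11 probe sets include 8 with a signal of 200 or more, and 6 of the 8 passed 2-fold upward while 2 did not, the lowest ratio being 1.09 at 367 and 338. Gstm2, a glutathione transferase gene, had a ratio of 2.39, and the transporter gene Abcc3 of 2.14. Gstm3, named after its values were seen, had 2.01, which fell just short of 2-fold, at 2.00 when rounded, under quantile normalization. The lower gene was Aldh3a2, a fatty aldehyde dehydrogenase gene, at 1325 in FLS against 3063 in DS livers, a ratio of 0.432. Cyp3a11, the main PXR target of mouse liver and also named after its values were seen, had 21104 and 20738, a ratio of 1.02. Meg3, Gstm2, Aldh3a2 and Abcc3 were named for their values too, as the 4 measured genes of the list with the largest absolute log2 ratios.

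The partners that P450 enzymes need had like signals in both pools. None of 12 measured genes of electron transfer and heme supply differed by 2-fold, and their ratios lay between 0.749 and 1.29. Over all measured genes only 1.46% were at least 2-fold higher and 1.08% lower, so this count does not set the list apart. The lowest was Alas1, the gene of the first enzyme of heme synthesis, at 5557 in FLS against 7419 in DS livers. The highest was Fech, the gene of ferrochelatase, at 1.29, followed by Urod at 1.18 and the cytochrome b5 reductase gene Cyb5r3 at 1.14. Por, the gene of P450 reductase, was not read here.

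The genes around arachidonic acid epoxides were also within 2-fold. Of 8 measured genes of this pathway outside the Cyp2c family none differed by 2-fold, and the median log2 ratio was -0.045. Few of all measured genes did so either, 1.46% upward and 1.08% downward. Ephx2, the gene of the soluble epoxide hydrolase that breaks these epoxides down, reached 8568 in FLS against 10784 in DS livers, for a ratio of 0.795. Ephx1, the microsomal epoxide hydrolase gene and also a CAR target, had a ratio of 0.809, the epoxygenase gene Cyp2j5 of 0.843 and the phospholipase A2 family gene Pla2g12b of 1.44.

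**Figure D5:**
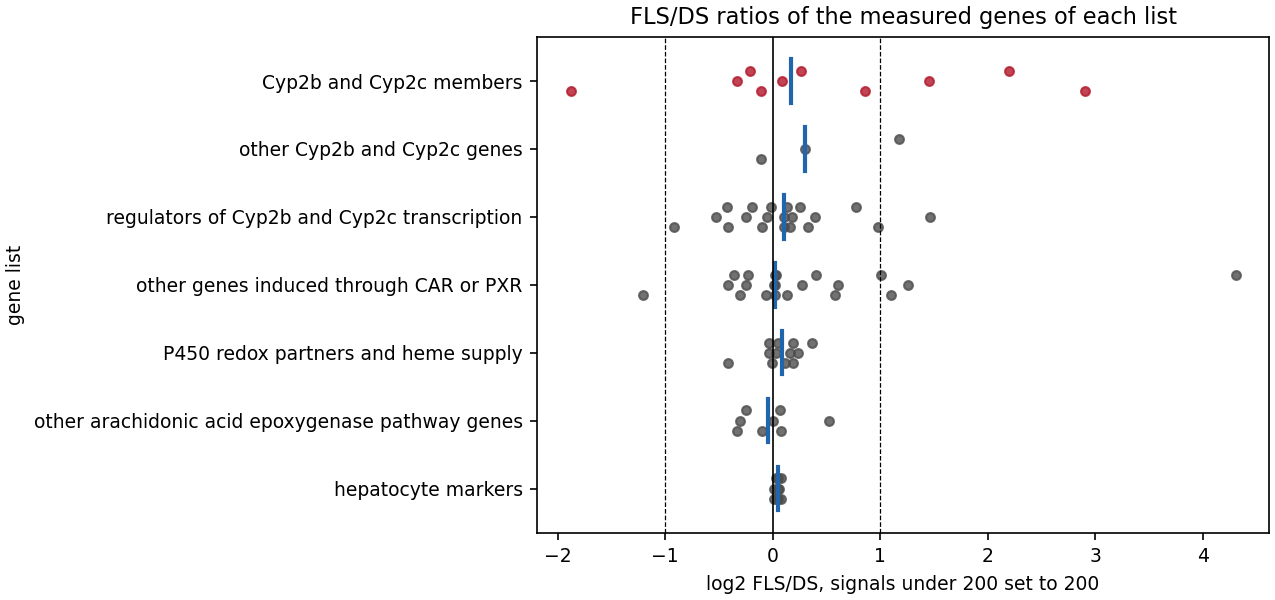
The log2 FLS/DS ratio of every measured gene in 7 lists, with signals below 200 set to 200, a point per gene and the list median as a vertical bar. Points of the Cyp2b and Cyp2c members lie on both sides of the dashed 2-fold lines, those of P450 partners, epoxide genes and hepatocyte markers lie between the lines, and the point farthest to the right is Meg3.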

How the data were processed

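Liver RNA was measured on 2 Affymetrix arrays, 1 per pool of 3 mice. The deposited intensity values are linear signals, which the authors normalized and summarized per probe set by the model-based index MBEI from perfect-match probes alone. For the scaling across arrays the method was not given in the sources used here, and the processing notes of the submitters list affy with no version. Probe sets were named through the platform annotation and RefSeq gene numbers (34958 with 1 symbol, 932 with several, 9211 unnamed here), and each gene was read from whichever of its probe sets was brightest on average. Ratios are FLS/DS of these signals, with no offset. Signals below 200 were set to 200 for counts, medians and ranks. The Cyp2b and Cyp2c members and the other gene lists were chosen with earlier results of these data known. Named are all members, Actb, certain regulators and enzymes of known role, and up to 4 measured genes of each list with the largest absolute log2 ratio. Windows at gene starts were aligned pairwise end to end with free end gaps. The calculation was tested on simulated ratios. The number of arrays limits the precision. The tools were Biopython 1.88, statsmodels 0.14.6, matplotlib 3.10.9, pandas 2.3.3, numpy 2.4.6 and Python 3.11.15.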

Additional observations from a re-analysis of the deposited data

How the results depend on the processing

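The number of members at least 2-fold higher was 3 under every alternative except division by Actb, where Cyp2c50 joined at 2.08 to make 4. The number at least 2-fold lower was 1 except with a signal limit of 500, where it was 0, since the DS signal of Cyp2b13 is 737. The median log2 ratio of the members ran from 0.15 with quantile normalization to 0.38 with division by Actb. Over 7 alternatives for each of 10 members, 3 of 70 log2 ratios moved by more than 0.25, which is the SD found among probe sets of the same gene in 3014 genes. They were Cyp2b10 at 7.51 and Cyp2b13 at 0.178 with an offset of 50, and Cyp2b10 at 6.46 without probe sets whose names end in _x_at, _s_at or _a_at. Many of the 70 could not move this far. The 9 members with 1 probe set keep their value under any choice of probe sets. Division by Actb shifts every log2 ratio by 0.21, and centring on the median shifts all by a single smaller amount. The count of 3 is therefore no measure of robustness. A single ratio crossed 1, that of Cyp2c38. No paired analysis was possible because each strain has 1 array. Without replicates, the spread between mice is unknown for all values.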

Other observations

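Because Cyp2b9 and Cyp2b13 are known as female-biased, other liver genes with a known sex bias were read in the same arrays. The lists of such genes were made with earlier results of these data known, so their counts are a description. Of 17 measured genes of a male-biased list, 1 (5.88%, against 1.46% of all measured genes) passed 2-fold with FLS the higher pool, 2 (11.8%, against 1.08%) with FLS the lower pool, and 14 did neither. Their median log2 ratio of -0.18 became 0.025 after division by Actb, which left 1 lower gene. Ugt2b38, a glucuronosyltransferase gene, reached 647 in FLS against 3001 in DS livers, for a ratio of 0.216. Cyp7b1, a gene of bile acid and oxysterol hydroxylation, had 3955 and 8163, a ratio of 0.484 that became 0.559, within 2-fold, after division by Actb. Elovl3, a fatty acid elongase gene, had 2618 and 1298, a ratio of 2.02 that was 1.99 with the loess trend removed. Moxd1 had 56.1 and 361, at least 1.81-fold lower in FLS livers. Of 15 genes on the array from a female-biased list, 5 were measured. Rtn4 was higher in FLS livers at 3828 against 757, a ratio of 5.06, and a second probe set gave 1439 and 264, while its other 3 stayed below 200 in both pools. Ntrk2 was lower at 350 against 709, a ratio of 0.493 that came within 2-fold when the ratios were centred on the median or divided by Actb, where it was 0.569. Of its 3 measured probe sets 2 were at least 2-fold lower. Hao2 had a ratio of 0.927 and Cux2, at 195 against 214, lay at the signal limit. The other 10 female-biased genes stayed below 200 in both pools.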
